A study of Mus musculus with 12 samples.

Results

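Sparse Tead2-EnR cells were set against dense Yap cells, which were 4 of the 12 Affymetrix arrays of this study, 2 in each group. All cells were NIH3T3, an established mouse fibroblast line that stops dividing when its dishes fill. Tead2-EnR is the DNA-binding factor Tead2 joined to the repression domain of Engrailed, and these cells were taken at 30% of the confluency that they reach themselves. Yap cells expressed the coactivator Yap and, by their label, were still proliferating when taken, a little past the density at which normal cells are confluent, called high density here. Vector and density both differed between these groups, so their parts in any difference cannot be told apart. The 4 arrays were chosen by sample title, and no measured value entered the choice. Control-virus cells at 30% confluency (sparse control) and at complete confluency (confluent control), again with 2 arrays each, gave the density step without a change of vector. The dense member of that step was completely confluent, whereas the Yap cells are labelled as still proliferating, so by the labels the dense ends of these comparisons were not alike. The remaining 4 arrays, of Tead2-VP16 cells, entered only the fit, and statements on the highest or lowest group cover the other 4 groups. The labels do not say whether the infected cells were pools or clones, nor whether replicate arrays stand for separate cultures. P-values therefore measure the spread between arrays, which may be technical.

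Yap and its relative Taz bind the Tead factors and switch on genes for division, adhesion and matrix. The Hippo kinases Stk3, Stk4, Lats1 and Lats2 hold Yap in the cytoplasm, and in fibroblasts this happens as cells crowd together. A Tead factor fused to a repressor domain occupies Tead sites and turns their genes down, whereas added Yap raises their activity. The study's design text gives only the vectors and the densities, and no question beyond that.

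The deposited values were probe set intensities on a linear scale, and all levels below are log2 of them. A log2 fold change is the first-named group minus the other, and a gene was called at a Benjamini-Hochberg adjusted p below 0.05 in limma, over 18193 genes with 1 probe set each. Across genes, r was 0.9976 to 0.9986 between replicate arrays and 0.9901 to 0.9906 between Tead2-EnR and Yap arrays. Precision is limited by the small number of arrays. A larger gap between 3′ and 5′ probe sets of a control goes with lower RNA integrity. For the transferrin receptor, the 3′ probe set exceeded the 5′ probe set by 1.135 and 1.100 on the Tead2-EnR arrays, against 1.354 and 1.258 on the Yap arrays. The same gap was 0.168 and 0.139 against 0.117 and 0.128 for actin and -0.248 and -0.277 against -0.274 and -0.242 for Gapdh. Hybridization controls averaged 11.209 ± 0.067 on Tead2-EnR arrays and 10.871 ± 0.094 on Yap arrays (log2, SD, n = 2). The part of these control differences in the gene results was not tested.

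All 12 fibroblast markers were above the median gene, with Vim, the intermediate filament protein vimentin, at 14.19 and 14.19 on the Tead2-EnR arrays and 14.03 and 14.05 on the Yap arrays. The summed fibroblast marker intensity was 93526 and 93659 in sparse Tead2-EnR cells and 107066 and 108693 in dense Yap cells. Macrophage markers summed to 2146 and 2218 in Tead2-EnR cells and to 867 and 870 in Yap cells. Of their 10 genes, 2, Lyz2 and Cd14, were called. Over all genes 23.5% were called, and the called members of each marker list in this paragraph are to be read against that share. Ptprc, a member of the macrophage list, was at 3.44 and 3.08 in Tead2-EnR cells and 3.41 and 3.45 in Yap cells. Adgre1 was at 4.57 and 4.74 in Tead2-EnR cells and 4.84 and 4.58 in Yap cells. All of these values were well below the median gene of 6.87. The summed ranges in Tead2-EnR and Yap cells were 347 to 353 and 362 to 373 for 8 endothelial markers, 2410 to 2442 and 2007 to 2040 for 9 epithelial markers, 144.0 to 158 and 146 to 150 for 5 adipocyte markers, and 443 to 447 and 530.5 to 558 for 9 muscle markers. Krt14, a keratin, was the called member of the epithelial list (log2 fold change 0.36), Tek and Emcn were the called members of the endothelial list at levels below the median gene (the Emcn call was lost without either Tead2-EnR array, without the second Yap array, at an adjusted p of 0.157, or with only the compared arrays), and Acta1 was that of the muscle list.

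The endogenous genes of the 2 vectors were read by probe sets whose overlap with the constructs is not given in the sources used here, so they check neither label. Tead2 was 9.85 and 9.82 on the Tead2-EnR arrays, against 9.003 and 9.10 on the Yap arrays, 9.63 and 9.62 in sparse control cells and 9.87 and 9.90 in confluent control cells. The Yap arrays were thus the low ones of these 4 groups (log2 fold change 0.78, SE 0.0658, adjusted p = 1.9e-05). Yap1 was 9.80 and 9.78 in Tead2-EnR cells and 9.62 and 9.69 in Yap cells, with 9.79 and 9.83 in sparse and 9.95 and 9.98 in confluent control cells. Its difference of 0.14 was not called (adjusted p = 0.0965).

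Of 18193 genes, 4279 (23.5%) were called between sparse Tead2-EnR and dense Yap cells, 2336 (12.8%) higher and 1943 (10.7%) lower in Tead2-EnR cells. At least a 2-fold difference was reached by 421 called genes (2.31%), of which 312 (1.71%) were higher and 109 (0.599%) lower. The 2 Tead2-EnR arrays lay wholly above or wholly below the 2 Yap arrays in 59.8% of genes. Large differences thus fell mostly on the higher side. Without the second Yap array the count of lower genes was 1248, and without any 1 of the 4 arrays the total ran from 3014 to 3443.

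The density step in control cells shared no array with this comparison and was larger. There, sparse against confluent control, 8898 genes (48.9%) were called, 4150 (22.8%) higher and 4748 (26.1%) lower, and the median absolute log2 fold change was 0.23, against 0.125 between Tead2-EnR and Yap cells. Both comparisons called 3454 genes, which were 80.7% of those called between Tead2-EnR and Yap cells and 38.8% of those called in the control step. Of these, 2625 (14.4% of all genes) moved the same way and 829 (4.56%) opposite ways, and at 2-fold or more in both the numbers were 271 and 33. Across the 18193 genes the log2 fold changes of the 2 steps correlated with r = 0.413, given as a description, since genes share arrays, normalization and the fitted spread and are not independent. The difference between the 2 steps, tested directly, was called in 7064 genes (38.8%). The value between Tead2-EnR and Yap cells was the larger in 3856 (21.2% of all genes) and the smaller in 3208 (17.6%). Counts of list members below, for either step or their difference, are to be read against the matching shares over all genes. Of the 312 genes at least 2-fold higher in Tead2-EnR cells, 245 were also higher in sparse control cells, 48 were lower there and 19 were not called. Of the 109 at least 2-fold lower, 76 were lower in sparse control cells as well, 24 were higher and 9 were not called.

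**Figure D1:**
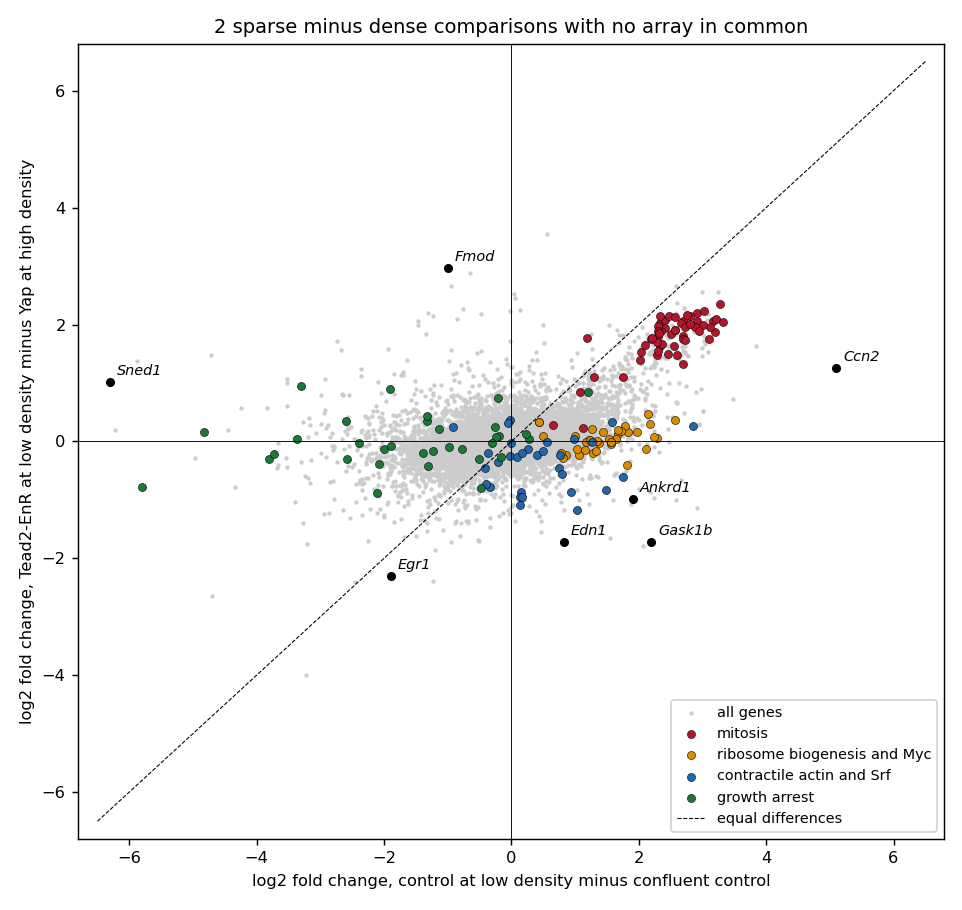
Each grey point is 1 of 18193 genes, with its log2 fold change of sparse minus confluent control cells on the x axis and of sparse Tead2-EnR minus dense Yap cells on the y axis. Coloured points are 4 gene lists, black points are named genes and the dashed line marks equal differences. Mitosis genes lie high on both axes, ribosome biogenesis genes are high on the x axis and near 0 on the y axis, and Fmod, Ankrd1, Edn1 and Gask1b lie in the quadrants of opposite direction.

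Genes of cell division made up the clearest group. Of 57 measured mitosis genes, 56 were called higher in sparse Tead2-EnR cells and none lower, against 12.8% higher over all genes, with a median log2 fold change of 1.885 against 0.001 over all genes. The member not called, Cdc25b, a phosphatase that activates the mitotic kinase, differed by 0.23 (adjusted p = 0.0547). Bub1, a kinase of the spindle checkpoint, was 9.79 and 9.68 on the Tead2-EnR arrays, against 7.35 and 7.41 on the Yap arrays, 10.75 and 10.74 in sparse control cells and 7.45 and 7.48 in confluent control cells. Sparse cells of either vector lay above all 4 dense arrays, and Tead2-EnR cells lay below sparse control cells. Bub1 was 5.11-fold higher in Tead2-EnR than in Yap cells (log2 fold change 2.35, SE 0.0548, adjusted p = 1.36e-08). Pbk, a mitotic kinase, was 10.64 and 10.63 in Tead2-EnR cells and 8.05 and 8.11 in Yap cells (2.55). Cenph, a kinetochore protein, had 8.11 and 8.17 against 5.73 and 5.82 (2.36). Pbk and Cenph are not members of the mitosis list and are named here as large rises. Aurkb, the kinase of the chromosomal passenger complex, was 9.75 and 9.82 in Tead2-EnR cells and 7.55 and 7.64 in Yap cells (2.19), and its partner Birc5, survivin, 10.49 and 10.60 and 8.45 and 8.51 (2.07). Shcbp1, an Shc-binding protein, was 9.66 and 9.59 in Tead2-EnR cells and 7.38 and 7.29 in Yap cells (2.29), another large rise outside the lists. No array of either group overlapped with the other for these genes. This held in 59.8% of all genes, and the rule that names large rises required it. The mean of Tead2-EnR cells lay between those of sparse control and Yap cells in all 57 genes, and the median ratio of their log2 fold change to that of the control step was 73.4%. The control step had 57 of 57 mitosis genes higher with a median of 2.551, and the direct test of the difference was called lower for 51 and higher for 1. Side by side, Tead2-EnR minus sparse control cells, with 6980 genes (38.4%) called in all, had 57 of 57 lower (18.1% of all genes) with a median of -0.633. Yap minus confluent control cells, with 4756 genes (26.1%) called in all, had 12 higher (11.7%) and 3 lower (14.5%) with a median of 0.091. On the scale of the list's median, centred per gene, Yap cells were at -1.076, sparse control cells at 1.418 and confluent control cells at -1.121. Although labelled as proliferating, Yap cells were thus near confluent control cells in these genes, and 42 of the 57 were not called between them. These last values share arrays with the main comparison and are no separate evidence. In bulk RNA, fewer dividing cells and less of these transcripts per cell cannot be told apart.

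Promoters of these genes are known for a short element, the cell cycle genes homology region. The DREAM complex binds it and silences such genes outside division. TTTGAA was searched on both strands of the RefSeq promoters (GRCm38.p6), 250 bases before to 50 after the start. It occurred in 38 of 52 promoters of mitosis genes (73.1%), in 34.7% of promoters of genes at least 2-fold higher in Tead2-EnR cells, in 8.26% of those at least 2-fold lower and in 13.4% of all genes tested. The genes at least 2-fold higher include 54 of the 57 mitosis genes, so these shares are not separate. In mitosis promoters 76.6% of the 47 matches began between 60 bases before and 45 after the start, against 26.3% of 2715 matches over all genes. The last 100 bases before the start are shown for 4 mitosis genes with high log2 fold changes that hold a match there. Not every chromosome entered the choice, so they need not be the highest of all such genes. Each match is in capitals (TTCAAA is the same word on the other strand).
Cdca5: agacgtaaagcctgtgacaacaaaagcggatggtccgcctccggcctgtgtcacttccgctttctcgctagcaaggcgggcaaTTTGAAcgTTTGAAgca
Cep55: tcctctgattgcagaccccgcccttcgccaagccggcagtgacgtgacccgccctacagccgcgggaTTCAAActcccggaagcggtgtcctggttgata
Kif11: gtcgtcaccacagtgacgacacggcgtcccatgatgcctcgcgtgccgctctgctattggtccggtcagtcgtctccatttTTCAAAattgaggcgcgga
Prc1: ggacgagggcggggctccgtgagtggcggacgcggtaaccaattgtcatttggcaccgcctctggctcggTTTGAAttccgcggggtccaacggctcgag
They lie at chr19:6084997-6085096 (plus strand), chr19:38054941-38055040 (plus), chr19:37376282-37376381 (plus) and chr7:80294376-80294475 (plus). Cdca5, sororin, which protects sister chromatid cohesion, was 9.28 and 9.33 in Tead2-EnR cells and 6.99 and 7.15 in Yap cells (2.24). Cep55, which acts in the final separation of daughter cells, was 9.69 and 9.79 and 7.59 and 7.79 (2.05). Kif11, the motor that separates spindle poles, was 9.11 and 9.19 in Tead2-EnR cells and 7.20 and 7.08 in Yap cells (2.01), and Prc1, which bundles midzone microtubules, 10.37 and 10.48 and 8.45 and 8.48 (1.96). A match is a description of the letters and not a shown site.

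DNA replication genes followed with smaller differences. All 46 measured members were higher in Tead2-EnR cells (12.8% over all genes), with a median of 1.224. Tk1, thymidine kinase, had 10.10 and 10.12 in Tead2-EnR cells against 7.53 and 7.57 in Yap cells, with 10.76 and 10.80 in sparse and 7.46 and 7.60 in confluent control cells. It was 5.91-fold higher in Tead2-EnR cells (log2 fold change 2.56, SE 0.059, adjusted p = 1.36e-08). Esco2, which acetylates cohesin, was 8.22 and 8.21 against 5.49 and 5.63 (2.65), and its control step of 2.59 differed from this by 0.07 (adjusted p of the difference = 0.697). Dscc1, of a clamp loader, was 8.997 and 8.91 against 6.67 and 6.72 (2.27). Pclaf, a PCNA partner, was 11.56 and 11.61 in Tead2-EnR cells and 9.31 and 9.44 in Yap cells (2.21). Esco2, Dscc1 and Pclaf are not members of the replication list either and were named for their large rises. The helicase subunits Mcm3, Mcm5, Mcm6 and Mcm7 differed by 1.73, 2.04, 1.78 and 1.84, and the control step gave 3.14, 3.29, 2.51 and 2.13. GGCGGGAA, an E2F site, was in 12.8% of 47 replication promoters, in 8.33% of the promoters of genes at least 2-fold higher, in 1.83% of those at least 2-fold lower and in 3.18% of all. The genes at least 2-fold higher include 31 of the 46 replication genes.

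Among 24 G1 cyclins, their kinases, E2F factors and pocket proteins, 15 were higher and 1 was lower in Tead2-EnR cells (median 0.570). E2f8 and E2f7, repressors that act late in the cycle, differed by 1.93 and 0.998, Ccne2, cyclin E2, by 1.66, and Rbl1, the pocket protein p107, by 1.08. Of 7 inhibitors of cyclin-dependent kinases, 2 were higher and none lower (10.7% lower over all genes). Cdkn1a, the p53 target p21, was 11.98 and 11.94 on the Tead2-EnR arrays, against 10.59 and 10.52 on the Yap arrays, 11.03 and 11.08 in sparse control and 10.68 and 10.63 in confluent control cells. Tead2-EnR cells were above each of the other 3 groups (log2 fold change against Yap 1.40, SE 0.0525, adjusted p = 9.27e-08). The control step of Cdkn1a was 0.40, and the difference of 1.003 was called (adjusted p = 4.22e-06). Cdkn2d, p19, was 9.06 and 9.05 in Tead2-EnR cells and 8.20 and 8.14 in Yap cells (0.89). Of 18 p53 targets, 10 were higher and 1 was lower, against 12.8% and 10.7% over all genes, with a median of 0.262. The higher ones included Pmaip1, the cell death gene Noxa (1.25), Trp53inp1 (0.90), Ccng1 (0.84) and Btg2 (0.74), and the lower one was Plk2, a polo-like kinase (-1.17). Trp53inp1 was 10.92 and 10.89 in Tead2-EnR cells, 9.98 and 10.04 in Yap cells, 8.65 and 8.61 in sparse control and 10.55 and 10.52 in confluent control cells, so its control step ran the other way (-1.90).

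Other large rises lay outside the cell cycle, and the 6 genes described here had their highest values in Tead2-EnR cells. Fmod, the collagen-binding proteoglycan fibromodulin, had the highest log2 fold change of the genes named by rule. Its level was 8.39 and 8.14 on the Tead2-EnR arrays, against 5.46 and 5.13 on the Yap arrays, 5.42 and 5.20 in sparse control cells and 6.12 and 6.504 in confluent control cells. It was 7.84-fold higher in Tead2-EnR than in Yap cells (log2 fold change 2.97, SE 0.163, adjusted p = 9.58e-07), while sparse control cells were below confluent ones (-0.9995). Its 6 probe sets were all called higher, from 1.49 to 4.60. Lbp, an acute phase protein that binds bacterial lipopolysaccharide, was 9.75 and 9.73 in Tead2-EnR cells and 6.99 and 7.18 in Yap cells, with 6.26 and 6.19 in sparse and 7.17 and 7.17 in confluent control cells. No other array came within a log2 unit of the Tead2-EnR values in these 4 groups, and the fold was 6.31 (2.66, SE 0.0687). Ranbp3l, a Ran-binding protein, was 11.09 and 11.02 against 8.08 and 8.24 (2.89). Hsd11b1, the enzyme that regenerates active glucocorticoid, had 8.91 and 8.90 in Tead2-EnR cells and 6.46 and 6.45 in Yap cells (2.45), and Fetub, fetuin B, 8.71 and 8.78 and 6.17 and 6.28 (2.52). For Hsd11b1 and Fetub the control step was 0.05 and 0.04, and neither was called (adjusted p = 0.735 and 0.856). Lyz2, lysozyme, was 10.51 and 10.47 against 8.41 and 8.29 (2.14), and the other macrophage markers but Cd14 were not called.

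**Figure D2:**
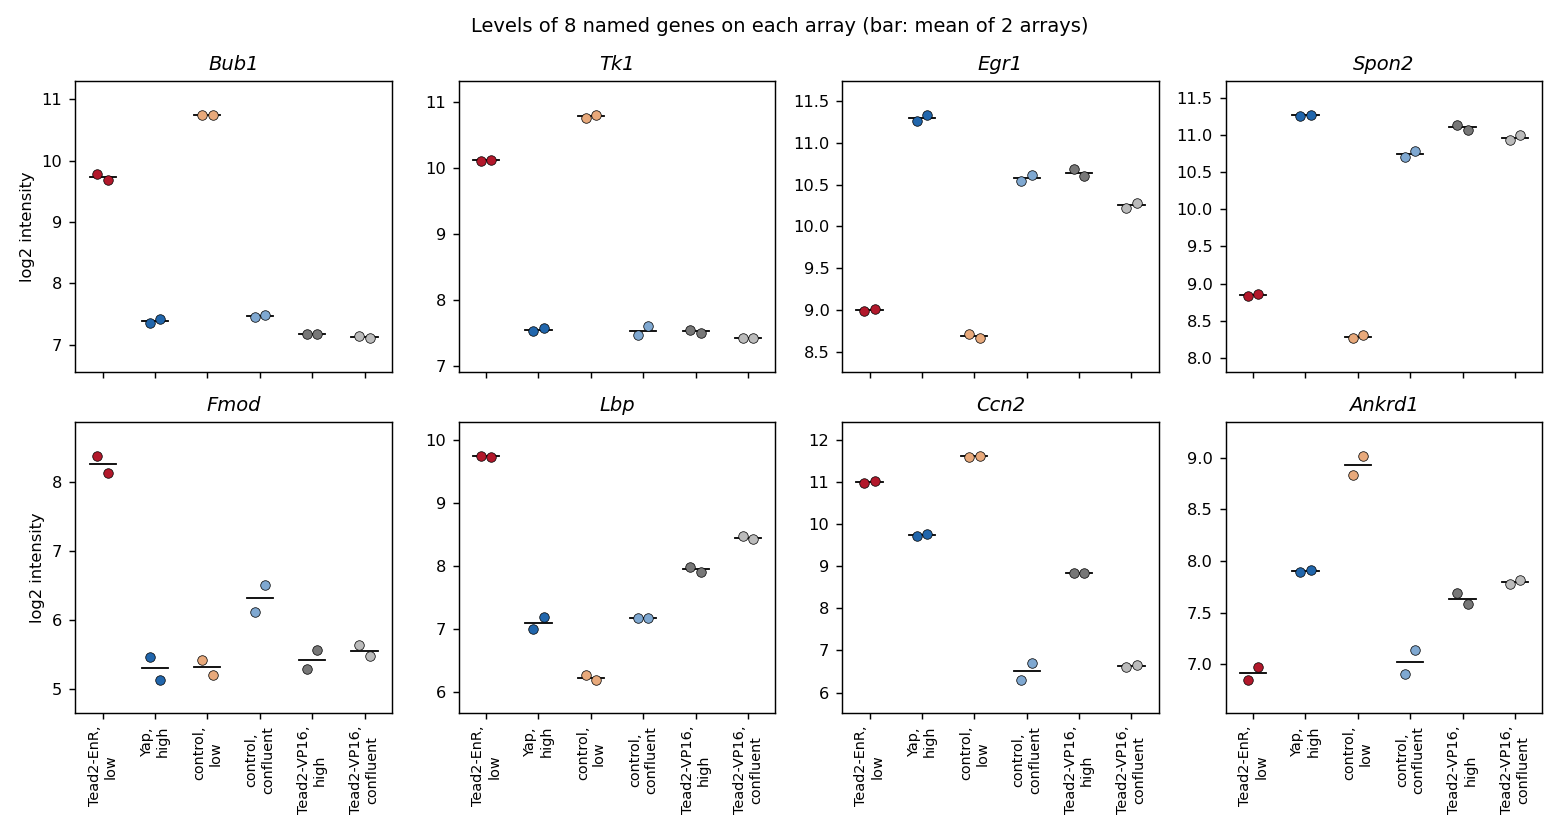
Log2 intensity (y axis) of 8 named genes on each of the 12 arrays (points) with the mean of 2 arrays (bar), grouped by vector and density along the x axis. Bub1 and Tk1 are high in both sparse groups, Egr1 and Spon2 are low in both, Fmod and Lbp are highest in Tead2-EnR cells, Ccn2 is higher in Tead2-EnR than in Yap cells, and Ankrd1 is lower in Tead2-EnR than in Yap cells.

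The largest falls included several secreted proteins. Itgbl1, a secreted protein with EGF-like repeats, was 4.98 and 4.38 on the Tead2-EnR arrays, against 8.64 and 8.71 on the Yap arrays, 5.88 and 5.89 in sparse control and 9.15 and 9.08 in confluent control cells. Both sparse groups lay under the median gene and both dense groups above it. It was 15.9-fold lower in Tead2-EnR than in Yap cells (log2 fold change -3.99, SE 0.148, adjusted p = 8.63e-08). C1s1, a complement protease, was 6.95 and 7.10 in Tead2-EnR cells and 9.69 and 9.66 in Yap cells (-2.65), and Spon2, a matrix protein, 8.84 and 8.86 and 11.25 and 11.27 (-2.41). The Spon2 difference was close to its control step of -2.46 (difference 0.04, adjusted p = 0.723). Medag was 8.67 and 8.82 against 11.16 and 11.09 (-2.38), and Slurp1, a secreted Ly6 protein, 9.66 and 9.70 against 11.51 and 11.57 (-1.86). Capn6, Prss23, a secreted serine protease, Tgm2, a transglutaminase, Cdsn, corneodesmosin, and Car6, a secreted carbonic anhydrase, differed by -1.76, -1.73, -1.70, -1.70 and -1.69. In 3 of the 14 largest falls the control step ran the other way. Gask1b, a Golgi-associated kinase-like protein, was 8.29 and 8.29 in Tead2-EnR cells, 10.02 and 10.02 in Yap cells, 10.35 and 10.30 in sparse control and 8.16 and 8.12 in confluent control cells. Tead2-EnR cells lay near the low level of confluent control cells, and Yap cells near the high level of sparse control cells. Acta1, skeletal muscle actin, was 5.83 and 5.67 in Tead2-EnR cells and 7.51 and 7.48 in Yap cells, with 6.23 and 6.46 in sparse and 5.57 and 5.51 in confluent control cells.

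Known Yap and Tead targets split by direction. Of 29 measured, 7 were higher and 10 lower in Tead2-EnR cells (12.8% and 10.7% over all genes), with a median of -0.116, and the control step had 14 higher and 11 lower. Ccn2, the matricellular protein connective tissue growth factor, was 10.97 and 11.02 on the Tead2-EnR arrays, against 9.72 and 9.76 on the Yap arrays, 11.59 and 11.62 in sparse control and 6.31 and 6.71 in confluent control cells. It was 2.38-fold higher in Tead2-EnR than in Yap cells (log2 fold change 1.25, SE 0.106, adjusted p = 1.89e-05), and this was smaller than the control step by -3.84 on the log2 scale (adjusted p = 8.33e-08). Ankrd1, a nuclear ankyrin repeat protein, ran the other way. It was 6.85 and 6.97 in Tead2-EnR cells and 7.89 and 7.91 in Yap cells, with 8.84 and 9.02 in sparse control and 6.91 and 7.14 in confluent control cells. Tead2-EnR cells were thus at the level of confluent control cells although they were sparse (-0.99, SE 0.0908, adjusted p = 3.42e-05; -1.23 on its other probe set). Edn1, the vasoconstrictor peptide endothelin, was 6.96 and 6.83 in Tead2-EnR cells, 8.66 and 8.59 in Yap cells, 8.71 and 8.77 in sparse control and 7.86 and 7.98 in confluent control cells. It was 3.31-fold lower in Tead2-EnR than in Yap cells (-1.73, adjusted p = 9.28e-08), and its Tead2-EnR values were below all 6 arrays of the other 3 groups.

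Ccn1, a relative of Ccn2, was 10.10 and 10.10 in Tead2-EnR cells and 10.21 and 10.23 in Yap cells on its brightest probe set, and the difference of -0.12 was not called (adjusted p = 0.155). Of its 4 probe sets, 2 were called lower, at -0.85 and -0.92. Nuak2, a kinase related to AMPK, was lower (-0.64), as was Amotl2, an angiomotin that binds Yap (-0.29). Fjx1, a secreted Golgi protein, and Tgfb2, a growth factor, were higher (0.64 and 0.80), and Birc5 is also a mitosis gene. Side by side, Ankrd1, Edn1, Ccn1, Nuak2 and Ccn2 gave -2.01, -1.84, -0.59, -0.56 and -0.61 in Tead2-EnR minus sparse control cells, and 0.88, 0.71, 1.002, 1.19 and 3.23 in Yap minus confluent control cells. These 5 were called in each of those comparisons, which share arrays with the main one, and do not stand for the list. Of its 29 genes, 9 were higher and 13 lower in Tead2-EnR minus sparse control cells (20.3% and 18.1% over all genes), and 12 were higher and 7 lower in Yap minus confluent control cells (11.7% and 14.5%). Amotl2 was higher in both, by 0.23 and 0.20.

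The binding word of Tead factors, GGAATG, was searched the same way. It was in 9 of 23 promoters of the Yap and Tead target list (39.1%), in 10.1% of the promoters of genes at least 2-fold higher in Tead2-EnR cells, in 16.5% of those at least 2-fold lower and in 13.2% of all genes tested. CACGTG, an E-box searched beside it, was in 13%, 6.6%, 5.5% and 8.72% of the same sets in that order. None of the 4 words searched lies within another. The 250 bases before the start are shown for Ankrd1, Ccn1 and Edn1, with each match in capitals (CATTCC is the same word on the other strand). These genes were picked by hand among list members lower in Tead2-EnR than in sparse control cells, and only promoters with a match were printed. A link between the word and lower levels was not tested.
Ankrd1: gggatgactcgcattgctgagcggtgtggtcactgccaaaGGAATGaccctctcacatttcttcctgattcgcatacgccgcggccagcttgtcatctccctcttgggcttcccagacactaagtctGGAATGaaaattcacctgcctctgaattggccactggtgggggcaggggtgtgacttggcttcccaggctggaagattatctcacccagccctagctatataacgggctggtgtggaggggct
Ccn1: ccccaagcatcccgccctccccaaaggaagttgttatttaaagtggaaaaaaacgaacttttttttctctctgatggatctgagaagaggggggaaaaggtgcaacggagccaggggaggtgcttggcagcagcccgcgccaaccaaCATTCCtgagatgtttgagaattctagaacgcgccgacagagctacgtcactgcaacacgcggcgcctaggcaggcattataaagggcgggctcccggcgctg
Edn1: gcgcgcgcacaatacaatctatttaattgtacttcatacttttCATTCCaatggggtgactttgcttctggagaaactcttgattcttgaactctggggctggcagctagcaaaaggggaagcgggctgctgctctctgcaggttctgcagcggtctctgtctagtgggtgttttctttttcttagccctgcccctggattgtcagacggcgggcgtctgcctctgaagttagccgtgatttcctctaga
They lie at chr19:36119845-36120094 (minus strand), chr3:145649986-145650235 (minus) and chr13:42301226-42301475 (plus). Ankrd1 holds 2 matches on its own strand, beginning at positions -210 and -123 from the start, and Ccn1 and Edn1 hold 1 each on the opposite strand, at -103 and -207.

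Hippo pathway genes differed little. Of 29 measured, 6 were higher and 4 lower (12.8% and 10.7% over all genes), with a median of 0.080, from Amotl1, an angiomotin relative, at -0.49 to Tead2 at 0.78. Stk4, an upstream kinase, was 9.53 and 9.48 in Tead2-EnR cells and 9.18 and 9.14 in Yap cells (0.35). Map4k4, another upstream kinase, and Fat1, a giant cadherin, were also higher (0.35 and 0.41). Vgll3, a Tead-binding cofactor, was lower (-0.46) and had the opposite control step (1.03).

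Biosynthesis genes that took part in the control step were mostly not called here. All 37 genes of ribosome biogenesis and Myc were higher in sparse than in confluent control cells (22.8% over all genes), with a median of 1.436. Between Tead2-EnR and Yap cells, 7 were higher and 4 lower (12.8% and 10.7% over all genes), with a median of 0.035. The direct test of the difference was called lower for 35 of 37 (17.6% over all genes). Nhp2, of the H/ACA ribonucleoproteins, was 11.25 and 11.26 in Tead2-EnR cells, 10.78 and 10.78 in Yap cells, 12.23 and 12.28 in sparse control and 10.16 and 10.07 in confluent control cells. Tead2-EnR and Yap cells thus lay between the control groups, 0.48 apart. Srm, spermidine synthase, was 10.64 and 10.63 against 11.03 and 11.04 (-0.40), with 11.75 and 11.89 in sparse and 9.997 and 10.01 in confluent control cells. Side by side, Tead2-EnR minus sparse control cells had 36 of 37 lower (18.1% over all genes). Yap minus confluent control cells had 31 higher and 1 lower (11.7% and 14.5% over all genes). Of 28 proteins of the cytosolic ribosome, 2 were higher and 1 lower, and Rps6 had 2 probe sets that were called in opposite directions.

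Atf4 and amino acid genes had 8 of 30 higher and 5 lower (12.8% and 10.7% over all genes), with a median of 0.075, whereas the control step had 22 higher and 3 lower (22.8% and 26.1%). Mthfd2 and Shmt2, mitochondrial enzymes of one-carbon metabolism, were higher in Tead2-EnR cells (0.81 and 0.49), as was Psat1 of serine synthesis (0.65), and Chac1, which degrades glutathione, was lower (-0.43). Cholesterol synthesis had 5 of 20 higher and 2 lower (median 0.142), against 18 higher and 1 lower in the control step. Idi1, of isoprenoid synthesis, was 11.49 and 11.58 in Tead2-EnR cells, 11.12 and 11.13 in Yap cells, 11.77 and 11.82 in sparse control and 9.21 and 9.34 in confluent control cells. Confluent control cells were thus the low group and the other 3 were within a log2 unit of each other. Of 18 fatty acid and adipogenic genes, 5 were higher and 1 lower, led by Ebf1, a transcription factor (1.57), Elovl6, a fatty acid elongase (0.92), and Cebpd (0.80). Glycolysis and hypoxia had 4 of 25 higher and 9 lower, with Egln3, a prolyl hydroxylase that acts on hypoxia-inducible factors (1.04), and the hormone precursor Adm (0.82) higher and Pdk1 (-0.39) lower.

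Chaperones and other unfolded protein genes of the endoplasmic reticulum were mostly lower. Of 20 measured, 15 were lower and 1 higher in Tead2-EnR cells (10.7% and 12.8% over all genes), with the median at -0.385, the lowest of the 31 lists drawn in the plot of list members. None of the 15 reached 2-fold. Hspa5, the chaperone BiP, was 12.53 and 12.51 on the Tead2-EnR arrays, against 13.21 and 13.21 on the Yap arrays, 12.72 and 12.78 in sparse control and 12.43 and 12.44 in confluent control cells. Yap cells were above the other 3 groups (log2 fold change -0.69, SE 0.0483, adjusted p = 4.87e-06). The co-chaperone Dnajb9, the ubiquitin ligase Syvn1, the transcription factor Xbp1, and Hyou1 and Manf were lower too (-0.85, -0.85, -0.79, -0.67 and -0.63). Yap cells had the highest mean of the 4 groups in 16 of 20 genes. The control step had 8 higher and 10 lower (22.8% and 26.1% over all genes). The difference between the steps was called lower for 9 and higher for 3 (17.6% and 21.2% over all genes).

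**Figure D3:**
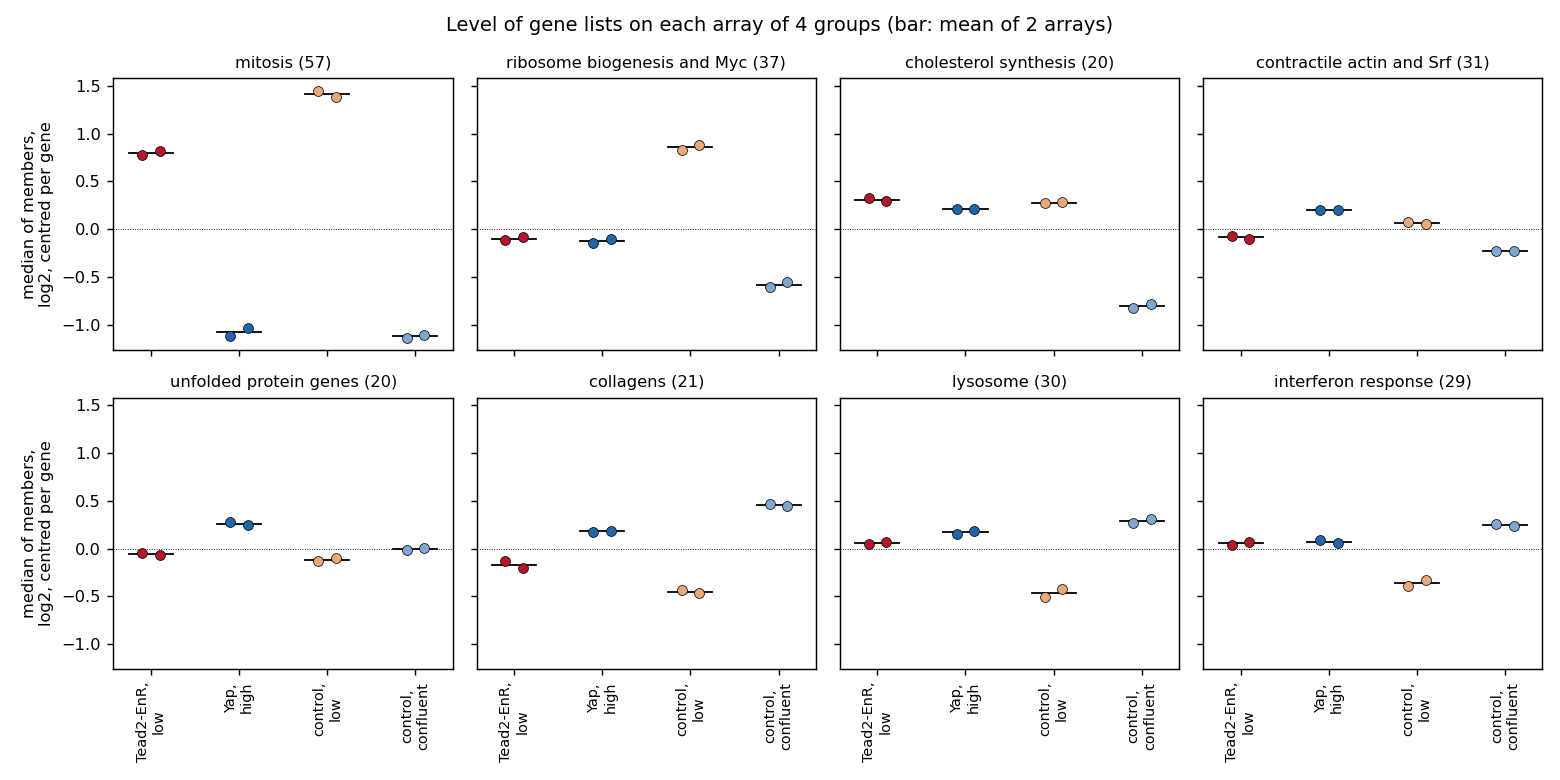
The y axis gives the median over a list's members of the log2 intensity minus that gene's mean over the 8 arrays shown, for 8 lists (number of genes in brackets), with 1 point per array and bars for group means. Mitosis is at 0.799 in Tead2-EnR cells and -1.076 in Yap cells, ribosome biogenesis at -0.099 and -0.123, and unfolded protein genes at -0.058 and 0.258.

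Matrix genes were divided. Of 21 collagen chains, 4 were higher and 11 lower in Tead2-EnR cells (12.8% and 10.7% over all genes), with a median of -0.331, and the control step had 17 lower (26.1%) and none higher. Col8a1 was 9.39 and 9.36 in Tead2-EnR cells and 10.80 and 10.75 in Yap cells (-1.39). Col4a1 and Col4a2, the basement membrane chains, differed by -1.34 and -1.04, and the fibrillar chains Col5a1, Col5a3 and Col3a1 by -0.77, -0.72 and -0.62. The 4 higher ones were Col6a1, Col6a2 and Col6a3, the chains of beaded microfibrils, and Col4a6, at 0.29, 0.42, 0.54 and 0.36, named after their values were seen. Their control steps ran the other way, at -2.23, -2.28, -1.497 and -1.74, and all 4 differences were called (adjusted p from 3.76e-08 to 4.79e-07).

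Small proteoglycans and other secreted matrix proteins had 7 of 23 higher and 5 lower (12.8% and 10.7% over all genes), with a median of 0.071, whereas in the control step 16 were lower and none higher (26.1% and 22.8%). Sned1, a matrix glycoprotein, was 11.89 and 11.85 in Tead2-EnR cells, 10.83 and 10.87 in Yap cells, 6.96 and 6.83 in sparse control and 13.21 and 13.18 in confluent control cells. Sparse control cells alone were near the median gene, and Tead2-EnR cells were above Yap cells (1.01). Aspn, asporin, was 10.80 and 10.82 in Tead2-EnR, 9.76 and 9.84 in Yap, 6.83 and 6.67 in sparse control and 10.32 and 10.25 in confluent control cells, so Tead2-EnR cells were the highest group. Mgp, matrix Gla protein, was 10.62 and 10.70 against 9.13 and 9.01 (1.59). Dcn, decorin, was lower in Tead2-EnR cells, at 11.10 and 11.16 against 11.85 and 11.98 (-0.78), as was Ogn, osteoglycin (-0.99), with control steps of -5.80 and -2.79.

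Of 15 matricellular genes, 3 were higher and 7 lower. Over all genes the shares were 12.8% higher and 10.7% lower, and the counts of the following lists are to be read against them. Thbs1, thrombospondin, was 10.72 and 10.63 in Tead2-EnR cells and 8.57 and 8.57 in Yap cells, with 7.66 and 7.90 in sparse and 8.60 and 8.68 in confluent control cells. The Tead2-EnR arrays were the highest of these 4 groups and sparse control cells the lowest (2.10, SE 0.0795, adjusted p = 9.28e-08). Tgfbi, Tnc, tenascin C, and the Ccn2 relatives Ccn4 and Ccn5 were lower (-1.26, -1.22, -1.08 and -1.05). Elastic fibre and crosslinking genes had 5 of 21 higher and 10 lower, with Efemp1 at -1.37, the crosslinking enzyme Lox at -0.54 and its relative Loxl3 at 1.07. Matrix proteases and inhibitors had 2 of 23 higher and 10 lower, among them Adamts5 (-1.13), Plat, the tissue plasminogen activator (-1.07), Timp3 (-0.73) and Mmp2 (-0.64). In 11 basement membrane genes none was higher and 4 were lower, down to Lamc1, a laminin chain, at -0.49. Of these calls, that of Nid2 was lost without any 1 of the 4 compared arrays. That of Nid1 was lost without the second Tead2-EnR array or either Yap array. That of Agrn was lost without the second Yap array or with the mean of its probe sets. The fibroblast markers themselves had 1 of 12 higher and 8 lower, with Prrx1, a mesenchymal homeobox factor, at -1.26 and Thy1 at -0.94, and the control step of the list was again 8 lower, with 3 higher.

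More contractile genes were lower than higher in Tead2-EnR cells. Of 31 contractile actin genes and Srf targets, 18 were lower and 5 higher (10.7% and 12.8% over all genes), with a median of -0.247, while the control step had 18 higher and 6 lower. Acta2, smooth muscle actin, was 12.61 and 12.53 on the Tead2-EnR arrays, against 13.74 and 13.76 on the Yap arrays, 13.08 and 13.11 in sparse control and 11.996 and 12.13 in confluent control cells. Yap cells were the highest of these 4 groups and Tead2-EnR cells lay between the control groups. Acta2 was 2.26-fold lower in Tead2-EnR than in Yap cells (-1.17, SE 0.0609, adjusted p = 6.3e-07). Tpm1, a tropomyosin, was 11.72 and 11.73 against 12.80 and 12.82 (-1.09), Vcl, vinculin, 11.63 and 11.54 against 12.52 and 12.56 (-0.95), and Csrp2 10.41 and 10.45 against 11.35 and 11.40 (-0.95). Yap cells were the high group for those 3 genes, and sparse control minus confluent control cells gave 0.14, 0.14 and 0.17. Actn1, an actin crosslinker, and Cnn2, a calponin, differed by -0.87 and -0.87. Yap cells had the highest mean of the 4 groups in 18 of the 31 genes, and 22 were called lower in the difference of the steps. Focal adhesion genes and integrins had 2 of 23 higher and 7 lower, with Itga6 at -0.66 and Itga1 at 1.13.

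Immediate early genes had 14 of 27 lower and 3 higher in Tead2-EnR cells (10.7% and 12.8% over all genes), with a median of -0.278, and 14 lower and 7 higher in the control step (26.1% and 22.8%). Egr1, a zinc finger factor induced by growth factors, was 8.98 and 9.01 on the Tead2-EnR arrays, against 11.27 and 11.34 on the Yap arrays, 8.71 and 8.66 in sparse control and 10.54 and 10.62 in confluent control cells. All dense arrays were above all sparse ones, and the fold was 4.94 (-2.30, SE 0.0584, adjusted p = 1.94e-08). Egr2, the AP-1 factor Fosl2 and Ier2 were lower as well (-1.38, -1.36 and -0.79), and Phlda1 was higher (0.77). The other Fosl2 probe set showed no difference, at 7.34 in Tead2-EnR and 7.32 in Yap cells (adjusted p = 0.949 with every probe set tested). Feedback inhibitors and targets of ERK signalling split, with 4 of 15 higher and 5 lower. The phosphatases Dusp5 and Dusp6 were lower (-0.77 and -0.59), and the Ets factors Etv4 and Etv5 and the inhibitor Spred2 were higher (0.75, 0.53 and 0.67). Spred2 probe sets differed, and 1 above the median gene gave 0.02 and was not called.

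Growth factors of the IGF, PDGF, FGF and EGF families, their receptors and binding proteins had 3 of 33 higher and 11 lower (12.8% and 10.7% over all genes). Igfbp4 was 9.72 and 9.91 in Tead2-EnR cells and 11.24 and 11.17 in Yap cells (-1.39), and Fgfr2, an FGF receptor, 9.63 and 9.82 and 8.57 and 8.43 (1.23). In the TGF-beta, BMP, Wnt and Notch list 11 of 40 were higher and 6 lower. The BMP target genes Id1, Id3 and Id4 were higher (0.67, 0.88 and 1.12), as was the Notch ligand Jag1 (1.05), and the ligand Tgfb3 was lower (-1.01).

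Chemokines and cytokines had 3 of 23 higher and 6 lower (12.8% and 10.7% over all genes), so the higher share was close to that of all genes. Cxcl5, which attracts neutrophils, was 7.69 and 7.88 in Tead2-EnR cells, 9.28 and 9.22 in Yap cells, 9.73 and 9.61 in sparse control and 8.32 and 8.22 in confluent control cells. Tead2-EnR cells were the lowest of these groups (-1.47). Ccl2 and Ccl7, which attract monocytes, were lower than in Yap cells too (-1.01 and -0.96), though above confluent control cells, and Cx3cl1 was higher (0.71). Of 13 genes on the complement and acute phase list, 4 were higher and 4 lower. Lbp and Ptx3 (0.85) were on the higher side, and C1s1 and C1ra on the lower (-2.65 and -1.23). C1qtnf3, which is not itself a complement component, was lower too (-1.28). Interferon-induced genes had 4 of 29 higher and 5 lower, against 2 higher and 21 lower in the control step, with Ifit2 at 1.03 and Stat2 at -0.58.

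Growth arrest genes, of which 28 of 33 were lower and 2 higher in sparse than in confluent control cells (26.1% and 22.8% over all genes), had 9 higher and 9 lower between Tead2-EnR and Yap cells (12.8% and 10.7%). Their median was -0.025, against -1.325 in the control step. Gas6, a ligand of receptor kinases, was 10.86 and 10.86 in Tead2-EnR cells, 9.88 and 9.94 in Yap cells, 8.11 and 8.03 in sparse control and 11.36 and 11.38 in confluent control cells. Tead2-EnR cells were closer to the confluent control than to the sparse control and exceeded Yap cells (0.94). Gas7 and Foxo1 were lower (-0.88 and -0.81). The direct test of the difference was called higher for 26 of the 33 genes and lower for 2. Of 30 lysosomal genes, 3 were higher and 11 lower (median -0.127), against 25 lower and 2 higher in the control step (-0.748). Ids, a sulfatase, and Lamp2, a membrane protein, were lower (-0.68 and -0.53), and Gusb, beta-glucuronidase, was higher (0.69).

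**Figure D4:**
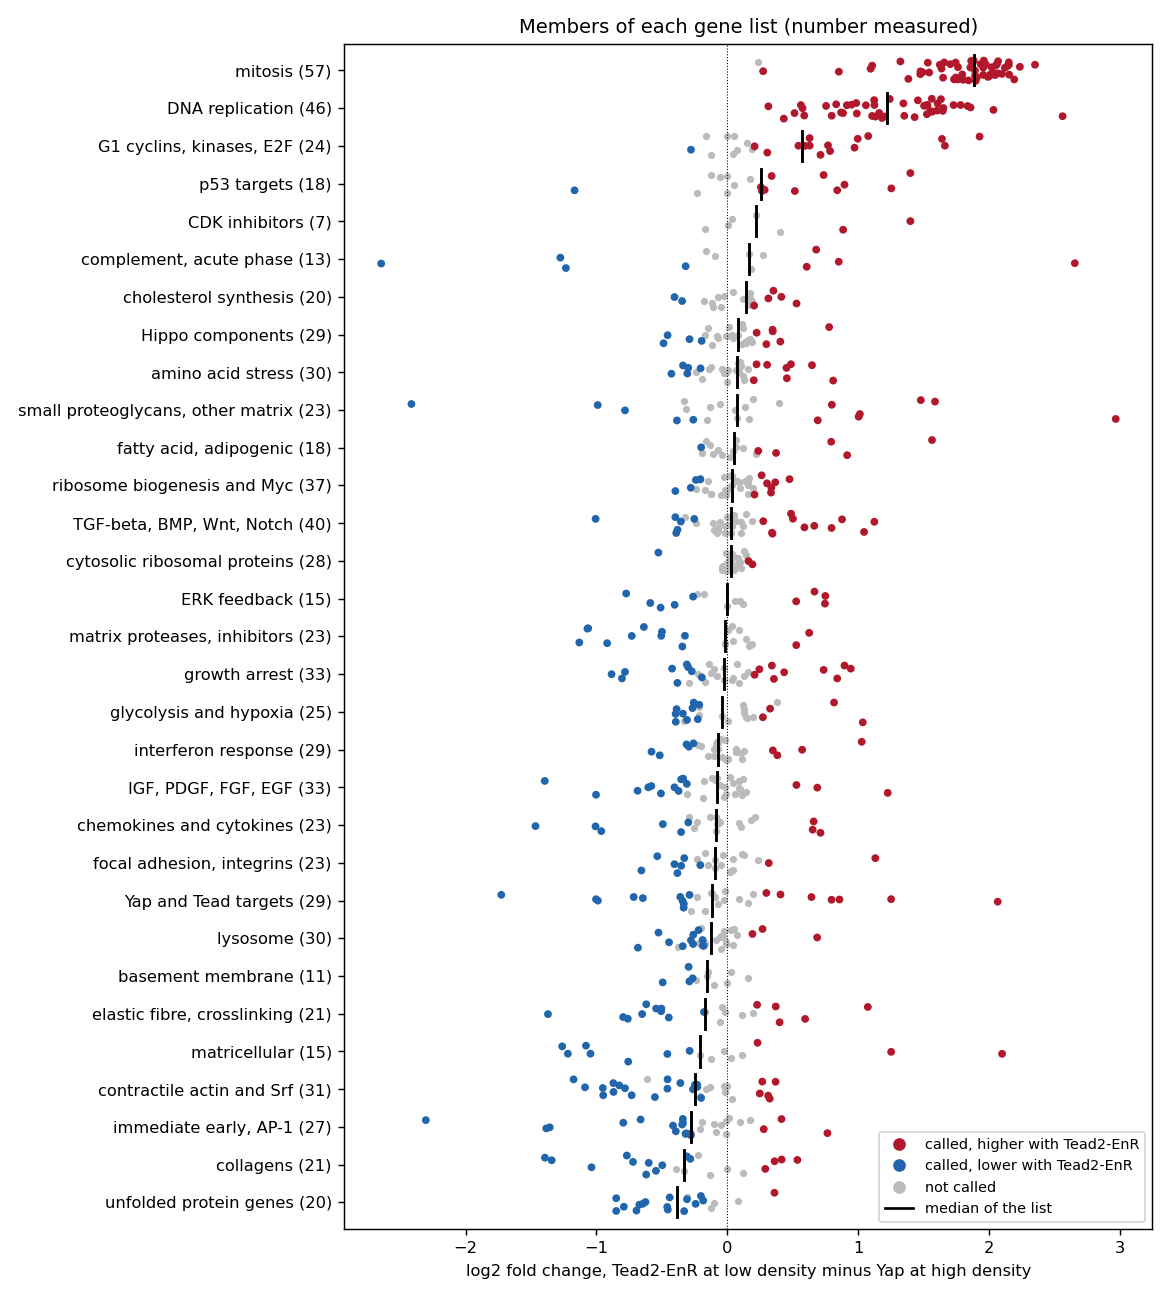
Each point is a gene of 1 of 31 lists, placed on the x axis by its log2 fold change of sparse Tead2-EnR minus dense Yap cells, with red for called higher, blue for called lower, grey for not called and a black bar at the list's median. Lists are ordered by median, from 1.885 for mitosis at the top to -0.385 for unfolded protein genes at the bottom.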

How the data were processed

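NIH3T3 RNA was measured on 12 Affymetrix arrays in 6 groups of 2. Per the submitters' processing notes the authors used RMA (no version given), and the deposited intensity values, from 3.77 to 25980, are linear rather than logarithmic, and log2 was applied to them first. Array medians ran from 51.9 to 53.7. No detection calls were used, and precision is limited by the small number of arrays.

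Of 45101 probe sets, 64 were controls, 34945 had 1 gene symbol in GEO's platform annotation, 932 several and 9160 none. Each gene was read by its brightest probe set, by mean over 12 arrays (18193 genes, 9010 with several probe sets), with no filter on level. Of the entrez identifiers, 34741 matched a RefSeq gene table (GRCm38.p6), and 0 symbols changed.

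All 12 arrays were fitted with 1 mean per group in limma 3.58.1 (lmFit, contrasts.fit, eBayes; R 4.3.3; 6 residual and 3.45 prior degrees of freedom), two-sided, with Benjamini-Hochberg adjustment over genes within each of 5 contrasts. The fit was tested on simulated data. Figures used matplotlib 3.10.9 (Python 3.11.15).

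Genes named were the 14 largest rises and 14 largest falls among called genes of at least 2-fold whose arrays did not overlap and whose higher group exceeded the median gene (6.87, log2), without unnamed clones; Tead2, Yap1, Ccn2, Ccn1 and Ankrd1; and up to 6 called members per list by adjusted p, or up to 2 where none was called. Of 907 entries in 37 lists, 852 were measured. The comparison, lists and rule were chosen with earlier results of these data known, so lists are described by counts and medians and got no test. Promoters are RefSeq's, matched by symbol for 14452 of the genes tested, and those printed were chosen after their values were seen. The alternatives were another choice or mean of probe sets, a level filter, a replicate block, a robust prior with a variance trend, repeated quantile normalization, median centring, only the compared arrays, a 2-fold threshold and each array left out. Same-numbered arrays deviated together with r = 0.047 between Tead2-EnR and Yap, so the numbers were not taken to pair the arrays.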

Additional observations from a re-analysis of the deposited data

Results flagged for a closer look

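The sparse minus dense difference was compared directly between the Tead2-EnR and Yap pair and the control pair, and 7064 genes were called for a difference between these steps. In 829 genes both steps were called with opposite signs, and the difference was called in each. That call is no further evidence, since values of opposite sign add up in the difference. Among the largest rises and falls and the genes always named, 8 had opposite signs. The difference on the log2 scale (Tead2-EnR minus Yap, less sparse minus confluent control) was 3.97 for Fmod, 3.60 for Lbp, 3.54 for Ranbp3l and 1.04 for Tead2. It was -3.92 for Gask1b, -2.90 for Ankrd1, -2.55 for Edn1 and -2.55 for Acta1. Vector and density differ together in the first pair and by the labels the dense groups were not alike, so what part each has in these differences cannot be told apart.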

How the results depend on the processing

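With a 2-fold change required as well, 421 genes (312 higher, 109 lower) were called between Tead2-EnR and Yap, 1994 in the control step, 1570 for the difference of the steps, 601 for Tead2-EnR minus sparse control and 200 for Yap minus confluent control; called in both steps were 271 the same way and 33 opposite ways. The same rule left 2 lower actin, 3 lower collagen, 3 lower immediate early, 1 lower fibroblast marker and 0 lower unfolded protein genes (0 of 15 limma calls reached 2-fold), and 4 higher G1 and 2 higher p53 genes. Testing every probe set, which counts a gene several times, called 7152 (3668 higher, 3484 lower), 15904, 12151, 11704 and 7659 probe sets in those 5 comparisons. Leaving out 1 array of a comparison gave 3014 to 3443 genes between Tead2-EnR and Yap (1654 to 1905 higher, 1248 to 1538 lower), 7979 to 8441 in the control step, 6269 to 6767 for the difference of the steps, 5815 to 6248 for Tead2-EnR minus sparse control, 3370 to 3536 for Yap minus confluent control, and 1914 to 2517 same-way and 565 to 787 opposite genes. The lists then had 55 to 56 mitosis, 46 replication, 12 to 13 G1 and 9 to 11 p53 genes higher, and 13 to 15 actin, 11 to 13 collagen, 11 to 13 immediate early, 13 to 14 unfolded protein and 8 fibroblast marker genes lower. With the replicate number as a block, 4167 genes were called between Tead2-EnR and Yap, 2266 higher and 1901 lower, and of the genes named by rule Cebpb lost its call. Rps6 reversed to -0.0865 with the mean of its 2 probe sets, which disagree. The share of called genes that were higher was 54.6%, against 45.3% with arrays centred on their medians and 50.1% with repeated quantile normalization. Over named genes and alternatives, 2505 values kept direction and call, 176 lost the call (122 of them under the 2-fold rule), 4 gained it and 1 reversed. The causes of these shifts were not tested.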
